A study of Homo sapiens with 20 samples.

Results

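The phosphorylation state of the translation factor eIF2α is set by 4 kinases and by 2 regulatory subunits that bring protein phosphatase 1 to it. The mRNAs of these 6 genes, chosen by name among the 58233 Ensembl gene identifiers of the count files, are described here in 4 lung cancer cell lines with or without the RNA-editing enzyme ADAR1. All 6 passed the filter on low counts in every comparison. The kinase genes are *EIF2AK1* (HRI, ENSG00000086232, GRCh37 chr7:6061878-6098806, minus strand), *EIF2AK2* (PKR, ENSG00000055332, chr2:37326353-37384665, minus strand), *EIF2AK3* (PERK, ENSG00000172071, chr2:88856259-88991036, minus strand) and *EIF2AK4* (GCN2, ENSG00000128829, chr15:40226316-40327792, plus strand). The phosphatase subunit genes are *PPP1R15A* (GADD34, ENSG00000087074, chr19:49375469-49379316, plus strand) and *PPP1R15B* (CReP, ENSG00000158615, chr1:204365620-204381015, minus strand). The values are reads over whole genes, and the canonical transcripts have between 2 exons (*PPP1R15B*) and 39 exons (*EIF2AK4*).

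Each kinase answers to a different stress. HRI is activated by haem shortage and mitochondrial stress, PKR by double-stranded RNA, PERK by unfolded protein in the endoplasmic reticulum and GCN2 by amino acid shortage. All of them place a phosphate on eIF2α, which holds the exchange factor eIF2B in an inactive complex, slows general translation and favours translation of the transcription factor ATF4. GADD34 is a stress-induced gene downstream of ATF4, CReP is regarded as the constitutive subunit, and both direct the phosphatase to eIF2α. *EIF2AK2* is an interferon-stimulated gene. The counts measure mRNA and carry no information on kinase activity or on eIF2α phosphorylation.

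The lines carried Cas9 with an sgRNA against *GFP*, the control, or against *ADAR* (*ADAR* KO). HCC366 (labelled lung adenosquamous carcinoma), NCI-H1650 (lung adenocarcinoma) and NCI-H196 (variant small cell lung cancer) are the ADAR1-dependent lines; they were untreated, and RNA was taken 5 days after lentiviral transduction. A549 (lung adenocarcinoma) tolerates *ADAR* KO, and its cells with either target were given IFN-β at 10 ng/mL, or sterile water as vehicle, over 24 h. The 20 libraries form 10 conditions of 2 libraries each, 1 per sgRNA (sg1 and sg2), and nothing states whether further cultures were grown. An SD below is the spread between the 2 sgRNA libraries of a condition. An SE or interval comes from edgeR's model, which shares spread over genes and over the conditions of a fit. It can therefore be small for a gene whose 2 libraries lie apart.

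Reads on genes numbered from 62679 to 19520189 per library, with a median of 6411279. The shallowest library was NCI-H196 GFP sg2, which held between 1 read (*EIF2AK3*) and 30 reads (*PPP1R15B*) on each of the 6 genes. In HCC366 ADAR sg2, 85.6% of alignments were not unique and were not counted, against 22.5% to 59.1% in the other libraries. The calls of members that rest on these libraries are given with and without them. For the lists this is done in part. *ADAR* mRNA was lower with both *ADAR* sgRNAs than with both *GFP* sgRNAs in every line and treatment, and the difference passed edgeR's test in each except HCC366 (log2 fold change −0.84, adjusted p = 0.208). In HCC366 it passed once GC content and length were offset (−1.01, adjusted p = 0.0215). It also passed in a single fit of all 20 libraries (−0.88, adjusted p = 0.00229). It did not pass in DESeq2 (adjusted p = 0.231), without the filter on low counts (0.112) or under the replicate block (0.436). Replacing the TMM scaling by that of DESeq2 did not make it pass either (0.216). Without ADAR sg1 or ADAR sg2 the HCC366 value was −0.98 or −0.72, and without GFP sg1 or GFP sg2 −1.08 or −0.60. The replicate block, here and below, joins libraries of the same sgRNA number, although same-numbered *GFP* and *ADAR* sgRNAs are different guides. The NCI-H196 value of *ADAR* was −0.41 (adjusted p = 0.00165). That call was lost in DESeq2 (adjusted p = 1.00), under the replicate block (0.518) and in the single fit (0.607). It was also lost without ADAR sg1 (−0.59) or ADAR sg2 (−0.37). In A549 with IFN-β it was lost in DESeq2 (adjusted p = 0.0850). These are levels of mRNA, and reads do not separate edited alleles from intact ones. Blood markers were at or near 0. Of the neuroendocrine markers, NCI-H196 had no read for *NEUROD1* and *INSM1* and 25 and 28 reads in all for *CHGA* and *SYP*, about 1 CPM each, and HCC366 had between 1 and 17 reads in all for each of the squamous markers *KRT5*, *KRT6A* and *TP63*, so these markers of both labels are at or near 0.

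The promoters of 3 of the genes are shown because their mRNAs are the ones that changed with IFN-β or *ADAR* KO in more than 1 comparison. The sequences are those of RefSeq on GRCh38.p14, found for 5 of the 6 genes, and run from 250 bases before the start of the gene to 10 bases after it. Capitals mark a match to 1 of 3 motifs searched on both strands, and no match overlapped another.
*EIF2AK2*, chr2:37156971-37157230, minus strand: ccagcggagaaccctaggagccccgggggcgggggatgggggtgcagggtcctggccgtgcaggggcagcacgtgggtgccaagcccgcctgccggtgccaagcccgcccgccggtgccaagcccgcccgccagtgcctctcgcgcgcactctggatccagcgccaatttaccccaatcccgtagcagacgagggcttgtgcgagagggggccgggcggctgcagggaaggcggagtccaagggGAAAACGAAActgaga
*PPP1R15A*, chr19:48872171-48872430, plus strand: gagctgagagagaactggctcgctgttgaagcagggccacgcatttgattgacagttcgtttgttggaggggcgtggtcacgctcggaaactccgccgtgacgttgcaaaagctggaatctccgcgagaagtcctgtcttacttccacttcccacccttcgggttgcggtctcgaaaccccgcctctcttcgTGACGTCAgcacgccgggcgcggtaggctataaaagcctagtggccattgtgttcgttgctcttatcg
*PPP1R15B*, chr1:204411808-204412067, minus strand: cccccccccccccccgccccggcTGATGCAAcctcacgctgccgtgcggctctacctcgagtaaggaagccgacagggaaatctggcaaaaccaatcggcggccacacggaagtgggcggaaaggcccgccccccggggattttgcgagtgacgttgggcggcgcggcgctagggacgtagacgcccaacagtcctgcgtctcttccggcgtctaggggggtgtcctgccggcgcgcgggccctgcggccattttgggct
The *EIF2AK2* match is to the core of the interferon-stimulated response element, and it runs from 6 bases before the start to 4 bases after it. That motif is in 3.20% of 35116 RefSeq promoters of this length. The *PPP1R15A* match is a cyclic AMP response element (TGACGTCA), from 58 to 51 bases before the start, a motif held by 1.80% of promoters. The *PPP1R15B* match is to a C/EBP-ATF composite core (TGATGNAA), from 227 to 220 bases before the start, a motif held by 3.29% of promoters. The windows of *EIF2AK3* and *EIF2AK4* held none of these letters, and the sequence of *EIF2AK1* was not used here. A match is a description of the letters and not evidence of binding.

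In control cells, *EIF2AK2* was highest in HCC366 and lowest in A549. Levels are given as CPM, the reads of a gene relative to library size after TMM scaling across the 8 control libraries. In HCC366 *EIF2AK2* was at 239 CPM (sg1) and 496 CPM (sg2). In NCI-H196 it was at 178 and 260 CPM, the second from 22 reads. In NCI-H1650 it was at 140 and 183 CPM, and in A549 at 135 and 138 CPM. The 2 libraries of A549 lay below all others, while the ranges of neighbouring lines in this order overlapped between HCC366 and NCI-H196 and between NCI-H196 and NCI-H1650.

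By edgeR's quasi-likelihood test over the 15964 genes tested, *EIF2AK2* was higher in HCC366 than in A549 by 1.47 on the log2 scale (SE 0.14, adjusted p = 7.22e-21). HCC366 exceeded NCI-H1650 by 1.23 and NCI-H196 by 1.04, with adjusted p = 3.32e-15 and 7.91e-09. These sizes follow the HCC366 sg2 library: without it the differences of *EIF2AK2* were 0.78 from A549 (adjusted p = 4.51e-06), 0.52 from NCI-H1650 (adjusted p = 0.00484) and 0.40 from NCI-H196 (adjusted p = 0.0524), and without NCI-H196 sg1 the last was 0.56 (adjusted p = 0.458). The difference of 0.44 between NCI-H196 and A549 had an adjusted p of 0.0100. That rose to 0.158 in DESeq2 and to 0.0573 with DESeq2's size factors in edgeR. It was 0.113 without the filter on low counts and 0.135 in a single fit of all 20 libraries, while the replicate block kept the call. The call was also lost without NCI-H196 sg1 (0.90), A549 sg1 (0.40) or A549 sg2 (0.44). NCI-H1650 and A549 differed by 0.24 (95% interval −0.03 to 0.51, adjusted p = 0.110), a difference that passed the test at 0.26 to 0.40 when HCC366 sg1, HCC366 sg2 or NCI-H1650 sg1 was left out. NCI-H1650 and NCI-H196 differed by −0.19 (interval −0.51 to 0.12, adjusted p = 0.295), and by −0.40 (adjusted p = 0.0234) under a replicate block by sgRNA. In bulk RNA, fewer cells with a transcript and less of it per cell cannot be told apart.

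The other members each had their own order of lines. *EIF2AK1*, the haem-regulated kinase, was highest in A549 (227 and 245 CPM) and lowest in HCC366 (158 and 170 CPM), apart from 94.4 CPM from 8 reads in the shallow NCI-H196 library. *EIF2AK3*, the kinase of the endoplasmic reticulum, was at 34.1 and 37.6 CPM in NCI-H1650 and at 10.1 and 17.8 CPM in A549. *EIF2AK4*, the amino acid sensor, was at 54.3 and 47.4 CPM in HCC366 and at 98.6 and 88.6 CPM in A549. In NCI-H196 it was at 152 CPM and, from 7 reads, 82.6 CPM, so the groups of NCI-H196 and A549 overlapped. No line was therefore highest in all 4 kinases.

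The phosphatase subunits were also placed differently. *PPP1R15A* was lowest in A549 (61.1 and 65.6 CPM), similar in HCC366 (132 and 104 CPM) and NCI-H1650 (132 and 124 CPM), and highest in NCI-H196 (308 CPM and, from 13 reads, 153 CPM). *PPP1R15B* was lowest in HCC366 (83.8 and 92.4 CPM) and highest in NCI-H196 (303 and 354 CPM). A549 was at 168 and 194 CPM of *PPP1R15B*, and NCI-H1650 at 268 and 210 CPM. The plot of control levels shows that the A549 and HCC366 points of *PPP1R15A* and *PPP1R15B* change places.

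Over the 6 pairs of lines, 27 of 36 tests of a member in a pair of lines passed the threshold, from 3 of 6 members in HCC366 against NCI-H1650 to 6 of 6 in HCC366 against A549. Of all genes, 56.7% passed in HCC366 against NCI-H1650, 57.3% in HCC366 against NCI-H196, 64.9% in HCC366 against A549, 61.7% in NCI-H1650 against NCI-H196, 68.3% in NCI-H1650 against A549 and 70.5% in NCI-H196 against A549, so the members' share is near that of any gene. DESeq2 passed 17 of the 36, and between 24.97% and 35.8% of all genes in these pairs. Without the shallow NCI-H196 library the same 27 tests passed. The line and the vehicle, which A549 alone received, cannot be told apart in its pairs. With DESeq2's size factors in place of TMM, the median of all genes moved to 0.13 in HCC366 against NCI-H196 and to 0.15 in NCI-H1650 against NCI-H196.

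**Figure D1:**
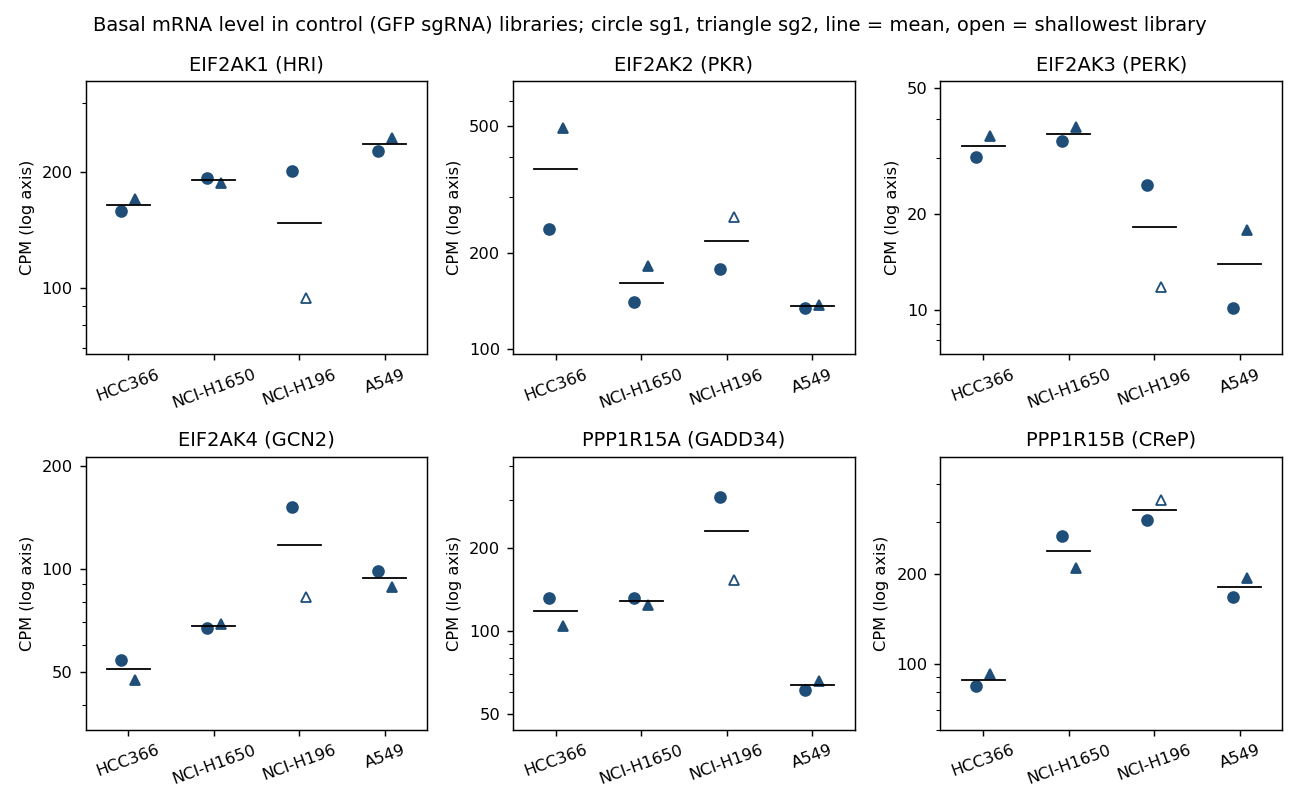
Level of each of the 6 mRNAs (CPM, log axis) in the 8 control libraries by cell line, with a circle for sg1, a triangle for sg2, a line at the mean of the 2 and an open symbol for the shallowest library. *EIF2AK2* runs from 135 CPM in A549 to 496 CPM in HCC366, and *PPP1R15A* is lowest in A549 at 61.1 and 65.6 CPM.

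Levels can be compared between genes only per length, and the order depends in part on which length is taken. Per kilobase of canonical transcript, *EIF2AK3* had the lowest level of the 6 in every line. *EIF2AK1* was the most abundant kinase mRNA per kilobase in A549, at 53.4 ± 2.93 CPM per kb (SD, n = 2) against 13.7 ± 0.211 for *EIF2AK2*. In HCC366 the 2 did not differ beyond their spread, at 37.2 ± 1.91 for *EIF2AK1* and 36.8 ± 18.2 for *EIF2AK2*. With the length of all exons of the gene in place of the canonical transcript, *EIF2AK3* stayed lowest in every line, while the order of *EIF2AK1* and *EIF2AK2* in HCC366 changed to 29.9 ± 1.54 and 33.3 ± 16.5 CPM per kb. *EIF2AK1* shares 532 exon bases (9.69% of its exons) with *AIMP2* on the other strand, and the strand setting of the counting is not given in the sources used here.

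*ADAR* KO raised *PPP1R15A* in each of the 3 ADAR1-dependent lines, and no other member passed the test in all of them. From here levels are CPM scaled within a line, and adjusted p values are from edgeR over all genes tested unless DESeq2 is named. In HCC366 *PPP1R15A* was at 129 and 101 CPM in the *GFP* libraries and at 850 and 3116 CPM in the *ADAR* libraries. In NCI-H1650 it was at 139 and 132 CPM against 283 and 322 CPM. In NCI-H196 it was at 328 and 191 CPM, the second from 13 reads, against 664 and 703 CPM. The groups did not overlap in any of the 3 lines, and the HCC366 *ADAR* libraries were the furthest apart. The share of all genes without such overlap was not counted, here or below.

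The log2 fold change of *PPP1R15A* was largest in HCC366, at 4.12 (SE 0.59, adjusted p = 0.0272). It was 1.16 in NCI-H1650 (SE 0.11, adjusted p = 2.11e-12), and NCI-H196 gave 1.10 (SE 0.11, adjusted p = 7.80e-21). Without HCC366 ADAR sg2 the HCC366 value was 2.93, and without NCI-H196 GFP sg2 the NCI-H196 value was 1.06. Without NCI-H196 GFP sg1, which leaves the shallow library as the control, it was 1.86 (adjusted p = 8.98e-06), in a fit where the median of all genes was 0.18. A single fit of all 20 libraries lost the call for NCI-H196 (adjusted p = 0.112) and, narrowly, for NCI-H1650 (adjusted p = 0.0501). *PPP1R15A* is among the genes that the study chose to show for these samples, so its direction is not independent evidence.

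*PPP1R15B*, the constitutive subunit, moved less. In NCI-H196 it was at 322 and 440 CPM, the second from 30 reads, in the *GFP* libraries and at 487 and 510.5 CPM in the *ADAR* libraries. The groups did not overlap. By Poisson counting, the 95% interval of those 30 reads is 20.2 to 42.8 reads, so the level of that library is uncertain. The log2 fold change was 0.61 (SE 0.11, adjusted p = 7.71e-07). That call held without the shallow library (0.63, adjusted p = 3.66e-13) and was lost without GFP sg1 (0.20, adjusted p = 0.796), without ADAR sg1 (0.54, adjusted p = 0.460), without ADAR sg2 (0.47, adjusted p = 0.899), in DESeq2 (0.47, adjusted p = 1.00), under a replicate block by sgRNA (0.47, adjusted p = 0.595) and in a single fit of all 20 libraries (0.55, adjusted p = 0.362).

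In HCC366 *PPP1R15B* was at 81.3 and 89.4 CPM against 168 and 152 CPM, again without overlap. The log2 fold change of 0.90 (SE 0.32, 95% interval 0.18 to 1.63) did not pass the test (adjusted p = 0.202). It passed without either *ADAR* library (0.80 without sg1, adjusted p = 6.05e-04; 0.98 without sg2, adjusted p = 2.42e-04), but these fits called 52.0% and 9.41% of all genes against 1.25% with both, and their spread comes from the *GFP* pair alone, the lone *ADAR* library being assumed to vary alike. It also passed with offsets for GC content and transcript length (1.09, adjusted p = 0.00901) and in a single fit of all 20 libraries (0.86, adjusted p = 0.00252). The deviation of HCC366 ADAR sg2 from the other HCC366 libraries followed GC content and length, which took up 51.9% of its variance over genes, and the figure for GFP sg2 was 35.6%. Their part in the *PPP1R15B* result was not tested beyond these offsets. In NCI-H1650 *PPP1R15B* was at 281 and 222 CPM against 279 and 316 CPM; the groups overlapped, and the value was 0.24 (interval 0.03 to 0.45, adjusted p = 0.167).

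The kinase mRNAs showed no rise after *ADAR* KO that passed the test in any line. *EIF2AK2* was at 232 and 480 CPM with *GFP* sgRNAs and 290 and 219 CPM with *ADAR* sgRNAs in HCC366 (log2 fold change −0.49, interval −1.39 to 0.41, adjusted p = 0.523). Without HCC366 GFP sg2 it was 0.13 (adjusted p = 1.00), and without HCC366 ADAR sg1 it was −0.75 (adjusted p = 0.00121), in the fit that called 52.0% of all genes. Once GC content and length were offset it was 0.17 (adjusted p = 0.721), so its direction in HCC366 changes with 1 library and with this correction. In NCI-H1650 it was at 147 and 194 CPM against 133 and 139 CPM, without overlap (−0.33, interval −0.55 to −0.10, adjusted p = 0.0561), and leaving out 1 library gave values from −0.51 without GFP sg1 (adjusted p = 0.0229), the one that passed, to −0.14 without GFP sg2 (adjusted p = 0.710). In NCI-H196 it was at 190 and 322 CPM, the second from 22 reads, against 200 and 173 CPM (−0.10, interval −0.31 to 0.10). Without the shallow GFP sg2 it was −0.085 and without GFP sg1 it was −0.84 (adjusted p = 0.419).

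*EIF2AK4* was the one kinase with a called change after *ADAR* KO, in NCI-H196. It was at 161 and 103 CPM (the second from 7 reads) in the *GFP* libraries and at 120 and 131 CPM in the *ADAR* libraries. The groups overlapped, and the log2 fold change was −0.32 (SE 0.10, adjusted p = 0.0197). Without GFP sg1 it reversed to 0.33 (adjusted p = 0.860), without the shallow GFP sg2 it was −0.34 (adjusted p = 0.00590), and the call was lost without ADAR sg1 (−0.20), without ADAR sg2 (−0.34), in DESeq2 (−0.21), without the filter on low counts (−0.31), with the replicate block (−0.27) and in a single fit of all 20 libraries (−0.29). *EIF2AK4* was at −0.14 in HCC366 and 0.12 in NCI-H1650, neither called.

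No change in *EIF2AK1* or *EIF2AK3* after *ADAR* KO passed the test in these lines. *EIF2AK1* was at −0.02 in NCI-H1650 (interval −0.22 to 0.19), −0.07 in NCI-H196 (−0.27 to 0.13) and −0.41 in HCC366 (−1.20 to 0.38). In HCC366 it was at 153 and 164 CPM against 147 and 93.1 CPM, without overlap, and leaving out 1 library gave values from −0.79 without ADAR sg1 (adjusted p = 0.00133, in the fit that called 52.0% of all genes) to −0.099 without ADAR sg2 (adjusted p = 0.858). *EIF2AK3*, the least abundant member, was at 0.09 in HCC366 (−0.73 to 0.91), at −0.03 in NCI-H1650 (−0.33 to 0.27) and at 0.01 in NCI-H196 (−0.35 to 0.36).

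Of the 6 members, 3 were called in NCI-H196 against 17.8% of all genes, 1 in NCI-H1650 against 8.6% and 1 in HCC366 against 1.25%. The NCI-H196 background falls from 2513 genes to 10 in DESeq2 and to 115 with the replicate block. The median log2 fold change of the 6 members was −0.03 in HCC366 and NCI-H196 and 0.05 in NCI-H1650, and that of all genes tested was within 0.01 of 0 in each line. The members called higher were phosphatase subunits in every line.

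**Figure D2:**
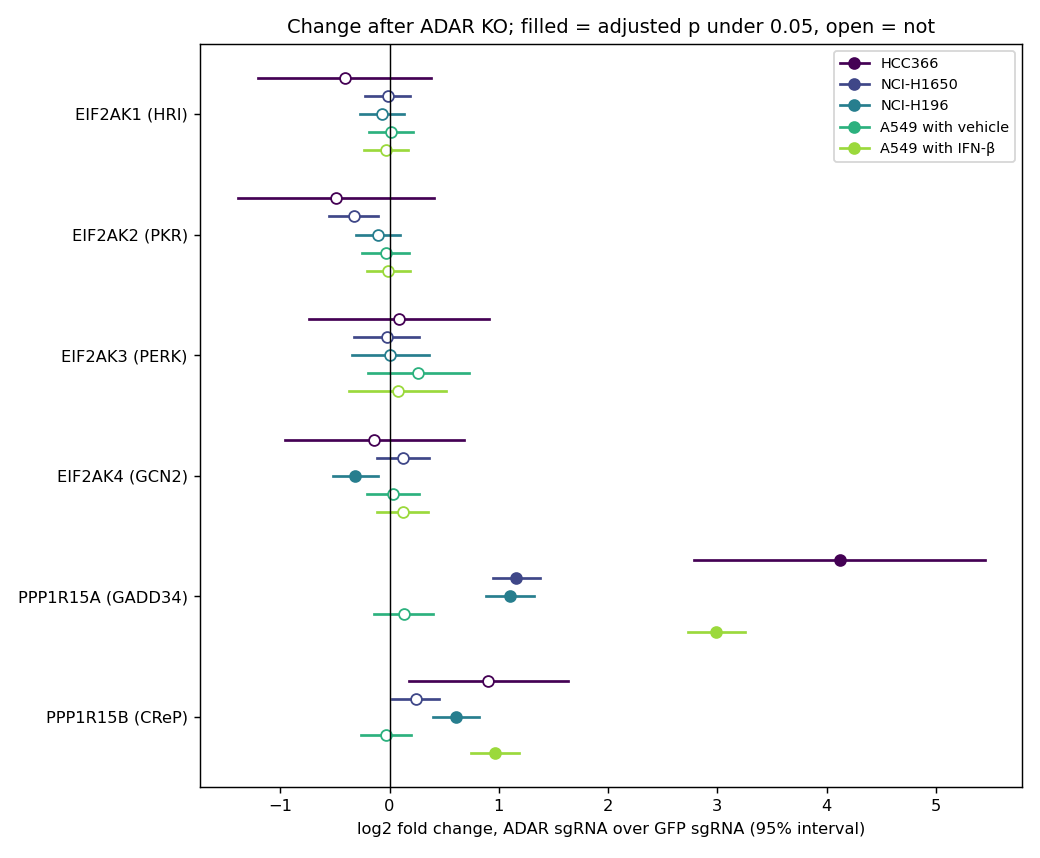
Log2 fold change of each member after *ADAR* KO (horizontal axis) with its 95% interval, for the 3 ADAR1-dependent lines and for A549 with vehicle and with IFN-β. Filled points passed the test at an adjusted p of 0.05. *PPP1R15A* lies at 2.99 in IFN-β-treated A549, at 4.12, 1.16 and 1.10 in the 3 ADAR1-dependent lines and at 0.13 in A549 with vehicle, while the kinases lie between −0.49 and 0.26, with *EIF2AK4* in NCI-H196 (−0.32) the one called.

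When the 12 libraries of HCC366, NCI-H1650 and NCI-H196 were fitted together with the line as a covariate, *PPP1R15A* rose by 2.10 (SE 0.41, adjusted p = 0.00655) and *PPP1R15B* by 0.51 (SE 0.14, adjusted p = 0.0362). These are 2 of 6 members, against 5.3% of all genes. Without both doubted libraries, a choice made after seeing the data, the values were 1.57 (adjusted p = 2.58e-08) and 0.49 (adjusted p = 0.00226). The *PPP1R15B* call was lost with the replicate block (adjusted p = 0.0582) and in 8 of the 12 fits that leave out a library, where the value lay between 0.44 and 0.53 and the adjusted p between 0.0620 and 0.134. The 8 libraries were HCC366 GFP sg1, GFP sg2 and ADAR sg1, NCI-H196 GFP sg1, ADAR sg1 and ADAR sg2, and NCI-H1650 GFP sg2 and ADAR sg2.

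*EIF2AK2* was at −0.39 across the 3 lines (SE 0.17, interval −0.75 to −0.04, adjusted p = 0.166). Its value was negative under every alternative run for this comparison, from −0.51 without HCC366 GFP sg1 to −0.21 without HCC366 GFP sg2, and passed the test in none. *EIF2AK1*, *EIF2AK3* and *EIF2AK4* were at −0.14, −0.03 and −0.10, none called.

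The size of the *PPP1R15A* rise differed between lines. It was larger in HCC366 than in NCI-H1650 by 2.92 (SE 0.52, adjusted p = 0.0106) and larger than in NCI-H196 by 2.84 (SE 0.53, adjusted p = 0.0125). NCI-H1650 and NCI-H196 differed by −0.09 (interval −1.17 to 1.00). All genes called were 0.659%, 0.792% and 0% in these 3 differences, the last with 544 genes at an unadjusted p under 0.05 and 0 genes called by DESeq2. Without both doubted libraries the first 2 values fell to 1.73 and 1.87 (adjusted p = 1.09e-13 and 1.08e-14). Without HCC366 GFP sg2 neither difference passed (2.74 and 2.65, adjusted p = 0.1246 and 0.144), and the difference from NCI-H196 was also lost without NCI-H196 GFP sg1 (2.06, adjusted p = 0.695), ADAR sg1 (2.70, adjusted p = 0.0834) or ADAR sg2 (2.92, adjusted p = 0.0850) and in DESeq2 (2.85, adjusted p = 0.0784).

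The *ADAR* KO effect on *PPP1R15B* in HCC366 exceeded that in NCI-H1650 by 0.62 (adjusted p = 0.351) and that in NCI-H196 by 0.34 (adjusted p = 0.707), and neither difference passed. The effect on *EIF2AK2* differed by −0.21 (−1.03 to 0.61), −0.31 (−1.19 to 0.56) and −0.10 (−0.98 to 0.77) in the 3 pairs, of which the HCC366 and NCI-H196 pair passed without HCC366 ADAR sg1 (−0.68, adjusted p = 0.0317, with 23.5% of all genes called in that fit). The 3 differences share libraries and are not independent.

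In A549 with vehicle no member passed the test after *ADAR* KO. *PPP1R15A* was at 47.8 and 50.2 CPM in the *GFP* libraries and 53.9 and 53.6 CPM in the *ADAR* libraries (0.13, interval −0.14 to 0.40). *PPP1R15B* was at 131 and 148 CPM against 135 and 139 CPM (−0.03, interval −0.26 to 0.19). *EIF2AK2* was at 106 CPM in both *GFP* libraries and at 105 and 102 CPM in the *ADAR* libraries (−0.04, interval −0.25 to 0.18). The groups of *PPP1R15A* and of *EIF2AK2* did not overlap, with both differences small against their intervals. None of the 6 members was called by edgeR or by DESeq2, none had an unadjusted p under 0.05, and 0.123% of all genes were called. *EIF2AK3* had the widest interval, −0.20 to 0.73, from 60 to 205 reads per library.

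The mean effect in the 3 ADAR1-dependent lines exceeded that in A549 with vehicle by 2.02 for *PPP1R15A* (SE 0.36, adjusted p = 0.00302, with 0.953% of all genes called). For *PPP1R15B* the difference was 0.59 (interval 0.16 to 1.014, adjusted p = 0.179); it passed without HCC366 ADAR sg1 (0.50, adjusted p = 0.0250), without HCC366 ADAR sg2 (0.61, adjusted p = 0.0261) and without both doubted libraries (adjusted p = 0.0111), in fits that called 13.8%, 1.76% and 2.51% of all genes. For *EIF2AK2* it was −0.31 (interval −0.84 to 0.23, adjusted p = 0.650). Line and treatment cannot be told apart in this difference.

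IFN-β raised the mRNA of 1 kinase in control A549 cells. *EIF2AK2* rose from 106 CPM in both vehicle libraries to 668 and 552 CPM with IFN-β, a 5.77-fold rise in the mean (log2 fold change 2.53, SE 0.11, adjusted p = 1.88e-18). *PPP1R15A*, at 49.4 and 54.8 CPM with IFN-β, and *PPP1R15B*, at 148 and 138 CPM, were within 0.09 and 0.03 of their vehicle values. *EIF2AK1* was at 177 and 187 CPM with vehicle and 158 and 149 CPM with IFN-β, without overlap (−0.25, interval −0.45 to −0.05, adjusted p = 0.167). *EIF2AK3* and *EIF2AK4* were at 0.21 and −0.17, neither called. The 1 member called compares with 5.7% of all genes.

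In *ADAR* KO A549 cells IFN-β moved both phosphatase subunits as well. *EIF2AK2* rose from 105 and 102 CPM to 594 and 617 CPM (2.55, SE 0.11, adjusted p = 1.68e-18). *PPP1R15A* rose from 53.9 and 53.6 CPM to 345 and 483 CPM (2.95, SE 0.13, adjusted p = 6.42e-18). *PPP1R15B* rose from 135 and 139 CPM to 248 and 309 CPM (1.03, SE 0.11, adjusted p = 1.01e-08). The groups did not overlap for any of the 3.

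*EIF2AK1* fell by 0.30 on the log2 scale in the same comparison (SE 0.10, adjusted p = 0.0262), from 181 and 188 CPM to 152 and 148 CPM. The value of *EIF2AK1* lay between −0.32 and −0.26 in the 8 fits that leave out an A549 library, and the adjusted p rose above 0.05 without GFP vehicle sg2 (0.0503), ADAR vehicle sg1 (0.112), ADAR vehicle sg2 (0.233), ADAR IFN-β sg1 (0.0560) and ADAR IFN-β sg2 (0.150). Without the filter on low counts it was 0.128 and in a single fit of all 20 libraries 0.259. *EIF2AK4* was at −0.08 and *EIF2AK3* at 0.02, neither called. The 4 members called compare with 24.5% of all genes.

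Under IFN-β, *EIF2AK2* differed between *ADAR* KO and control cells by −0.01 (interval −0.21 to 0.19), which did not pass the test. *PPP1R15A* was higher by 2.99 (SE 0.13, adjusted p = 9.82e-17) and *PPP1R15B* by 0.96 (SE 0.11, adjusted p = 8.22e-08), 2 of 6 members against 17% of all genes. These contrasts share libraries with those of IFN-β. The difference between the *ADAR* KO effects with IFN-β and with vehicle was 2.86 for *PPP1R15A* (SE 0.18, adjusted p = 8.87e-12) and 1.00 for *PPP1R15B* (SE 0.15, adjusted p = 6.56e-05), and 5.05% of all genes were called. In a single fit of all 20 libraries this difference of *PPP1R15B* was 0.95 (adjusted p = 0.0592). For *EIF2AK2* it was 0.03 (interval −0.27 to 0.32), and its rise with IFN-β was 5.77-fold in control and 5.87-fold in *ADAR* KO cells.

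**Figure D3:**
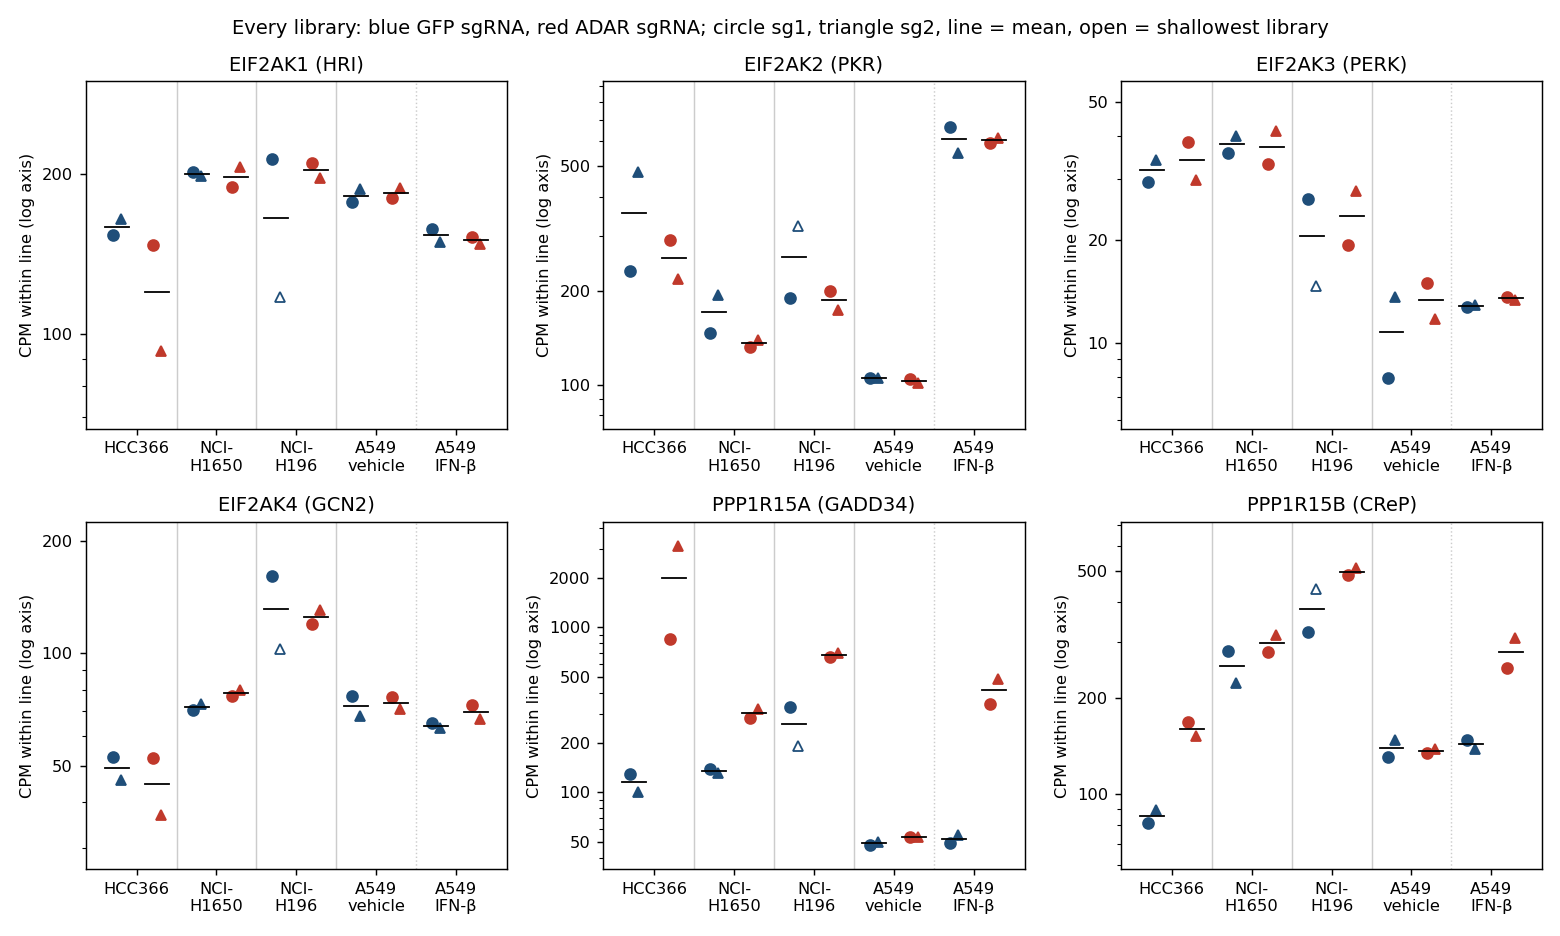
CPM within a line (log axis) of each member in all 20 libraries, blue for *GFP* and red for *ADAR* sgRNAs, with a circle for sg1, a triangle for sg2, a line at the mean and an open symbol for the shallowest library. In A549 *EIF2AK2* is near 106 CPM with vehicle and between 552 and 668 CPM with IFN-β for both targets, while *PPP1R15A* leaves the range of 47.8 to 54.8 CPM only in the *ADAR* libraries with IFN-β, at 345 and 483 CPM.

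These changes alter the composition of the kinase mRNAs. Per kilobase of canonical transcript, *EIF2AK2* made up 15.9% and 15.5% of the reads on the 4 kinase genes in A549 *GFP* cells with vehicle and 57.1% and 53.5% with IFN-β. In *ADAR* KO cells the share was 15.3% and 14.9% with vehicle and 54.0% and 56.0% with IFN-β. *EIF2AK1* was the largest share with vehicle, at 59.7% to 62.5%, and was at 30.4% to 32.7% with IFN-β. In HCC366, which received no IFN-β, *EIF2AK2* was at 31.4% and 47.5% in the *GFP* libraries and 36.1% and 39.0% in the *ADAR* libraries. In NCI-H1650 it was at 18.2% and 22.5% against 17.2% and 16.6%. The NCI-H196 libraries were at 18.6% and, in the shallow library, 40.1% against 21.4% and 18.96%. With the length of all exons the shares of *EIF2AK2* in A549 were 18.5% to 19.7% with vehicle and 60.2% to 63.5% with IFN-β.

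The ratio of *PPP1R15A* to *PPP1R15B* per kilobase of canonical transcript was below 1 in all A549 libraries except the *ADAR* libraries with IFN-β. It was 0.758 to 0.896 in the 4 vehicle libraries, 0.746 and 0.887 in the *GFP* libraries with IFN-β, and 3.12 and 3.498 in the *ADAR* libraries with IFN-β. In NCI-H1650 it was 1.10 and 1.33 with *GFP* sgRNAs and 2.27 and 2.28 with *ADAR* sgRNAs. In HCC366 it went from 3.54 and 2.52 to 11.3 and 45.9. In NCI-H196 the *GFP* libraries were at 2.28 and, in the shallow one, 0.970, and the *ADAR* libraries at 3.05 and 3.08. With the length of all exons, the 6 A549 libraries that were below 1 lay between 0.906 and 1.09, 3 of them above 1. On both lengths the ratio was higher with *ADAR* sgRNAs in each ADAR1-dependent line without overlap, a description with no test.

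**Figure D4:**
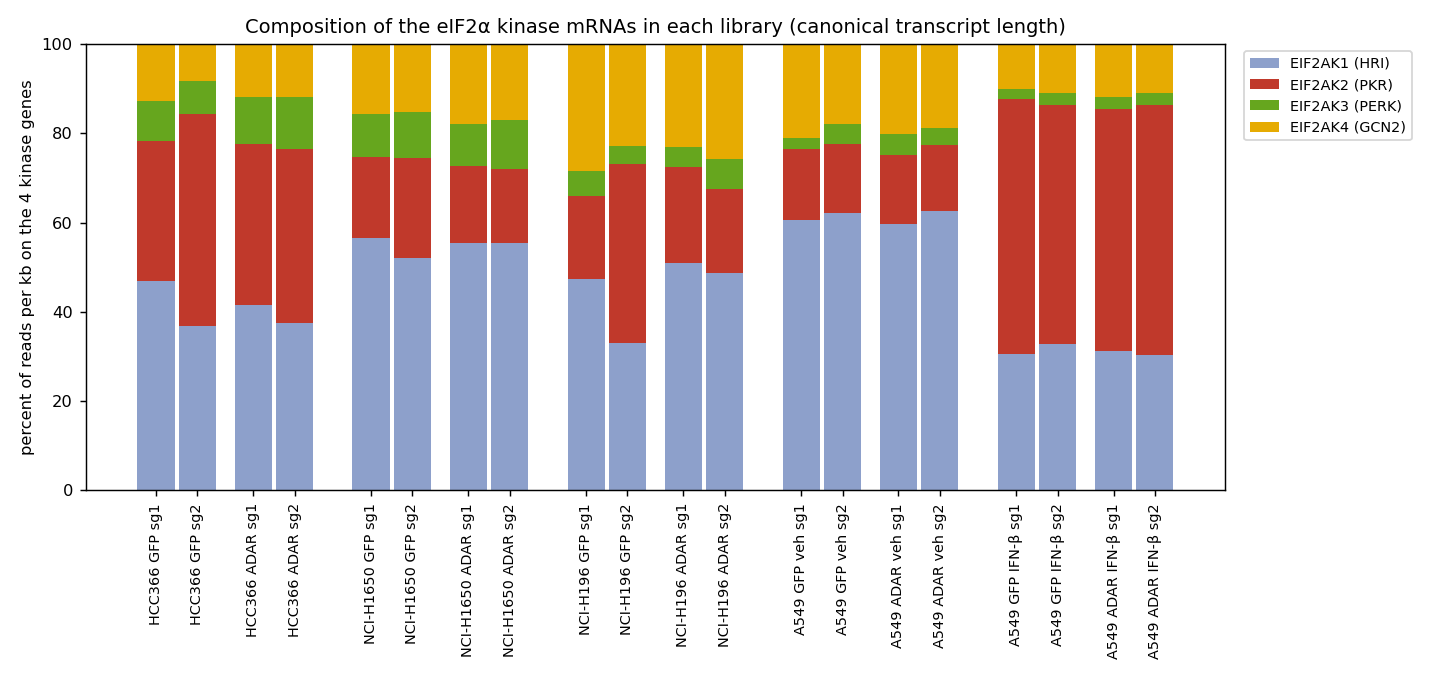
Share of each kinase mRNA (percent of reads per kilobase of canonical transcript on the 4 kinase genes) in every library, stacked to 100. *EIF2AK2* takes 14.9% to 15.9% in the A549 vehicle libraries and 53.5% to 57.1% in the A549 IFN-β libraries, with little difference between *GFP* and *ADAR* sgRNAs.

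The remaining genes of the pathway were counted in 3 lists. Among ATF4 and its targets, 14 of 18 rose and 1 fell with *ADAR* KO in NCI-H196 (17.8% of all genes called), 10 of 18 rose in NCI-H1650 (8.6%) and 4 of 16 tested rose in HCC366 (1.25%). In NCI-H196 the counts were the same without the shallow library, but 1 of 18 rose in DESeq2, 4 under the replicate block, 2 in a single fit of all 20 libraries and 3 to 6 without any 1 of the other libraries. In NCI-H1650 2 rose in the single fit and 7 to 10 in DESeq2, under the block or without 1 library. In HCC366 10 rose without ADAR sg2, 13 without ADAR sg1, 1 without GFP sg2, 8 in DESeq2, 7 under the block and 12 of 18 in the single fit. The median log2 fold change of the list was 0.64, 0.38 and 1.23 in this order, with the median over all genes within 0.01 of 0. In A549 with vehicle none of the 18 was called, with a median of 0.04. Under IFN-β 8 of 18 rose with *ADAR* KO (17% of all genes called), and 5 in the single fit (5.57%). *ATF3*, a stress-induced transcription factor, rose with *ADAR* KO by 4.57 in IFN-β-treated A549 and 4.15 in HCC366, and by less in NCI-H196 (1.57) and NCI-H1650 (1.90). *SESN2*, a stress-induced regulator of growth signalling, rose by 3.98 in HCC366, and *CHAC1*, a glutathione-degrading enzyme, by 3.64 in IFN-β-treated A549. *VLDLR*, a lipoprotein receptor, fell by 0.33 in NCI-H196. *ATF3*, *DDIT3*, *TRIB3* and *ASNS* of this list were picked by the study on these samples, so the list is not independent evidence of its direction.

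Few genes of the substrate and its exchange factor were called. Of the 8 eIF2 and eIF2B subunit genes, none was called in HCC366, 1 rose in NCI-H1650 (*EIF2B2*, 0.49) and 3 fell in NCI-H196 (*EIF2B1*, *EIF2S1* and *EIF2S3*, −0.46 to −0.28), where 17.8% of all genes were called. Those 3 were also called without the shallow library, and none of the 8 was called in NCI-H196 in DESeq2, under the replicate block, in the single fit or without any 1 of the other libraries. The *EIF2B2* call was lost under each of these alternatives as run in NCI-H1650, and in HCC366 1 gene was called without ADAR sg2 (*EIF2B5*, 0.77), 2 rose and 2 fell without ADAR sg1 and 2 rose in the single fit. *EIF2S1*, which encodes eIF2α itself, was at −0.34 in NCI-H196. Under IFN-β, *EIF2S2* rose by 0.35 with *ADAR* KO. Of 11 kinase regulators and catalytic subunits of protein phosphatase 1, *PPP1CC*, a catalytic subunit, fell in NCI-H1650 (−0.35) and NCI-H196 (−0.41). *OMA1*, the mitochondrial protease upstream of HRI, fell in NCI-H196 (−0.78). The NCI-H196 calls of this list were lost under the same alternatives. The call in NCI-H1650 was lost in DESeq2, in the single fit and without GFP sg1, GFP sg2 or ADAR sg1. *HSPA5*, the chaperone that restrains PERK, rose in NCI-H196 (0.53) and in control A549 cells with IFN-β (0.53) and fell with *ADAR* KO under IFN-β (−0.28). *PPP1CA*, another catalytic subunit, also fell in that last comparison (−0.37). There, 1 gene of this list fell under the replicate block (16.1% of all genes called), and no gene of either list was called in the single fit (5.57%). In the main fits the medians of both lists over the *ADAR* KO comparisons lay between −0.38 and 0.17.

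Each member had a different set of nearest genes over the 10 condition means of log2 CPM, among 13317 genes. *EIF2AK2* was closest to *LAP3* (Pearson r = 0.961), *TRIM21* (0.960) and *PSMB9* (0.931). *PPP1R15A* was closest to *DDIT3* (0.978), *DUSP8* (0.961) and *PIP5K1A* (0.955), and *PPP1R15B* to *EPC1* (0.988), *ZSCAN12* (0.979) and *GZF1* (0.961). For *EIF2AK3* the nearest was *ESRP2* (0.983), then *MCOLN3* (0.978) and *MYPN* (0.976), and for *EIF2AK4* it was *HAUS2* (0.989), then *BMI1* (0.985) and *CFL2* (0.984). *EIF2AK1* was closest to ENSG00000272335 (0.980), *RANP1* (0.972) and *LINC00235* (0.964). Between members, *EIF2AK4* and *PPP1R15B* had the highest correlation (0.702) and *EIF2AK3* and *EIF2AK4* the lowest (−0.737), while *EIF2AK2* stayed between −0.237 and 0.061 with all others. The 10 means come from 4 lines and share libraries, so these values describe the patterns and carry no test.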

How the data were processed

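RNA was depleted of ribosomal RNA, prepared with a directional kit and sequenced as paired ends. The authors aligned reads with STAR to hg19 and deposited raw HTSeq read counts per Ensembl gene, 1 file per library. Tool versions and the strand setting of the counting are not given in the sources used here. Of 58233 identifiers, 55727 were matched to a symbol (97.4% of reads). The counts were tested with edgeR 4.0.16 (R 4.3.3), using TMM scaling, its filter on low counts, the quasi-likelihood F-test, a prior count of 0.125 for fold changes and Benjamini-Hochberg adjustment over all genes tested, with a threshold of 0.05. The fits were made within each line, over the 3 ADAR1-dependent lines and over the 8 control libraries, and the comparison with A549 used all 20 libraries. DESeq2 1.42.0, its size factors, no filter, the sgRNA number as a block, a single fit of all libraries, GC and length offsets in HCC366 and leaving out each library were tried as alternatives. For the IFN-β contrasts in A549 and the interaction, a block for each sgRNA was also tried. It changed no call or direction of a member given here. The alternatives for the list counts were chosen after seeing the data. The main edgeR fits of *ADAR* KO in the 3 ADAR1-dependent lines and in A549 with IFN-β were tested on simulated counts. That simulation gave all genes the same spread and changed only genes above a set level. Its check on the share of changes recovered was not applied to NCI-H196, so that fit was not shown to recover changes. The other comparisons, the alternatives and the remaining measures were not simulated. Each member was named in full; other genes came from 3 pathway lists, by largest change. One of the cell type markers is not reported here. The members and lists were chosen with earlier results of these data known. Nothing states that the libraries are separate cultures, so p values rest on the spread between sgRNA libraries. Each tool models that spread over the conditions of a fit and over genes.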

Additional observations from a re-analysis of the deposited data

Results flagged for a closer look

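Effects that differed between groups by a test of the difference itself were found for both phosphatase subunits. The *ADAR* KO effect in A549 was larger with IFN-β than with vehicle by 2.86 for *PPP1R15A* and by 1.00 for *PPP1R15B*, with both *ADAR* libraries above both *GFP* libraries under IFN-β. The *PPP1R15A* effect was larger in HCC366 than in NCI-H1650 by 2.92 and than in NCI-H196 by 2.84, and the mean effect of the 3 ADAR1-dependent lines exceeded that in A549 with vehicle by 2.02. The values for HCC366 include the library with most non-unique alignments, whose part in them was measured by leaving it out: without it the *PPP1R15A* differences were 1.72 and 1.76.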

How the results depend on the processing

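Over all genes, deviations of same-numbered libraries correlated at −0.016 in NCI-H1650, −0.021 in NCI-H196, −0.078 to 0.037 in A549, −0.028 to 0.058 in the control libraries and −0.253 in HCC366. In HCC366 a crossed pairing, added after seeing the data, called 960 genes in place of 139. These correlations cannot exclude an effect of the guide on single genes. In A549, vehicle and IFN-β libraries of the same target and number carry the same guide. *ADAR* mRNA there was lower with ADAR sg1 than with ADAR sg2, under vehicle (161 against 250 CPM) and under IFN-β (691 against 895 CPM). Under a replicate block by sgRNA, the members called fell from 3 to 1 in NCI-H196 and from 2 to 1 across the 3 lines, and the block called 300 genes in HCC366, 115 in place of 2513 in NCI-H196 and 499 in place of 876 across the lines.

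Of the members called, DESeq2 kept 1 of 3 in NCI-H196, 1 of 2 in the differences between lines and 17 of 27 in the control cells, by count. A single fit of all 20 libraries called 0 in place of 3 in NCI-H196, 0 in place of 1 in NCI-H1650, 2 in place of 1 in HCC366 and 1 in place of 2 in the interaction. Offsets for GC content and length called 2 in HCC366, as they did with either replicate block. Leaving out both doubted libraries called 2 in place of 1 in the comparison with A549. Leaving out 1 library gave 1 to 3 members in NCI-H196, 1 to 2 in NCI-H1650, 1 to 4 in HCC366 (the 4 without ADAR sg1), 1 to 2 across the lines, 0 to 5 between the lines, 1 to 2 against A549 and 17 to 30 of 36 in the control cells. The counts over all genes also moved when 1 library was left out, as given below, so these ranges are not particular to the members. The cause was not tested.

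Directions turned only for values near 0 or resting on 1 library. *EIF2AK2* in HCC366 became 0.17 with offsets, and 0.22 when either replicate block, direct or crossed, was added to them. In NCI-H196 *EIF2AK1* became 0.12 in DESeq2, 0.14 with the replicate block and 0.023 with all 20 libraries, and *EIF2AK3* −0.33 with the block and −0.037 with all 20. *EIF2AK2* became 0.013 under IFN-β without the filter, −0.014 in the interaction with all 20 libraries, and 0.0029 in DESeq2 for NCI-H1650 against NCI-H196. *EIF2AK3* became −0.042 for IFN-β in *ADAR* KO cells with all 20 libraries, and across the lines 0.0094 in DESeq2 and 0.013 with its size factors. *PPP1R15A* became 0.14 for NCI-H1650 against NCI-H196 without both doubted libraries.

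Leaving out 1 library gave ranges that crossed 0. In HCC366 they were −0.95 to 0.13 for *EIF2AK2*, −0.14 to 0.27 for *EIF2AK3* and −0.41 to 0.13 for *EIF2AK4*. In NCI-H1650 they were −0.088 to 0.034 for *EIF2AK1* and −0.19 to 0.12 for *EIF2AK3*. In NCI-H196 they were −0.10 to 0.78 for *EIF2AK1*, −0.44 to 0.85 for *EIF2AK3* and −0.34 to 0.33 for *EIF2AK4*, which was called. In A549 with vehicle they were −0.029 to 0.060 for *EIF2AK1*, −0.032 to 0.76 for *EIF2AK3*, −0.064 to 0.11 for *EIF2AK4* and −0.12 to 0.064 for *PPP1R15B*. Under IFN-β they were −0.070 to 0.011 for *EIF2AK1* and −0.14 to 0.14 for *EIF2AK2*. For IFN-β in control cells they were −0.099 to 0.70 for *EIF2AK3* and −0.064 to 0.13 for *PPP1R15B*, and for IFN-β in *ADAR* KO cells −0.14 to 0.20 for *EIF2AK3*. The interaction of *EIF2AK2* ran from −0.11 to 0.17. Across the lines they were −0.10 to 0.0099 for *EIF2AK3* and −0.16 to 0.019 for *EIF2AK4*. Between lines *EIF2AK2* ran from −0.67 to 0.42 for HCC366 against NCI-H1650, from −0.74 to 0.34 for HCC366 against NCI-H196 and from −0.26 to 0.30 for NCI-H1650 against NCI-H196, and *PPP1R15A* from −0.85 to 0.15 in the last pair.

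The count over all genes moved by more than 1.5 times as well. DESeq2 called 10 in NCI-H196, 413 in place of 1250 in NCI-H1650, 362 in HCC366, 11 in place of 19 in A549 with vehicle, 56 in place of 109 and 66 in place of 131 for HCC366 against the other lines, and 3986 to 5723 in place of 9050 to 11252 in the control pairs. No filter gave 903 in HCC366, 1552 in NCI-H196, 30 in A549 with vehicle, 1829 across the lines, 399, 388 and 5 between lines and 111 in place of 186 against A549. A single fit gave 98 in NCI-H196, 159 in NCI-H1650, 3701 in HCC366, 5 and 1087 (in place of 2622) for *ADAR* KO in A549 with vehicle and IFN-β, 531 (880) and 2067 (3788) for IFN-β in control and *ADAR* KO cells, 164 (780) for the interaction, 3148 across the lines and 432, 471 and 1 between them. In HCC366 the offsets gave 975, with the block 1750 and with the crossed block 1377. Without both doubted libraries the counts were 1968 across the lines, 318, 515 and 161 between them and 554 against A549. Leaving out 1 library moved the counts from 9 (0.0781% of genes, without GFP sg2) to 6408 (52.0%, without ADAR sg1) in HCC366, from 41 (0.355%, without GFP sg1) to 3041 (17.5%, without GFP sg2) in NCI-H196, from 542 to 1110 in NCI-H1650, from 328 to 1907 across the lines, from 1 to 4802 and 1 to 4271 for HCC366 against NCI-H1650 and NCI-H196, from 0 to 104 for the other pair, from 24 to 3032 against A549, from 689 to 3581 for *ADAR* KO under IFN-β, from 3 to 22 with vehicle, from 253 to 1663 in the interaction and from 1310 to 12186 in the control pairs. Where this left 1 library in an arm, it was assumed to vary like the others.

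A tally of called values under the alternatives covered part of the members' tests. For pairs of control lines it held *EIF2AK2* alone. For differences between effects it held *EIF2AK2*, *PPP1R15A* and *PPP1R15B*. Within it, 275 kept their direction and call, 46 lost the call and 1 reversed. Most calls between control lines are therefore not in this tally. Depth limits NCI-H196 most, where 1 control library holds 1 to 30 reads per member, and *EIF2AK3* throughout.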
